A study of Mus musculus with 6 samples.

Results

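This account follows 10 genes of the JAK-STAT pathway downstream of interleukin 2 in regulatory T cells (Tregs), chosen by name: the kinase genes Jak1 and Jak3, the transcription factor genes Stat3, Stat5a, Stat5b and Stat6, and the feedback inhibitor genes Socs1, Socs2, Socs3 and Cish. A probe set belonged to a member when the array's annotation gave it exactly 1 gene symbol and that symbol was the member's. All 10 were found among the 23152 genes with a single symbol, and together they held 168 of 269751 probe sets. Tregs, the CD4+CD25high T cells that restrain immune responses, came from spleens of untreated male mice at 45 weeks of age. In 3 mice Park7, the gene of DJ-1, was knocked out (DJ-1-/-, KO), and 3 littermates were DJ-1+/+ (WT). Each mouse gave 1 array. The sources used here do not give how the knockout was made.

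Interleukin 2 binds a receptor whose beta chain carries the tyrosine kinase JAK1 and whose gamma chain carries JAK3. The active kinases phosphorylate STAT5, made from the neighbouring genes Stat5a and Stat5b, which then moves to the nucleus and binds DNA. In Tregs this signal sustains Foxp3, and Tregs take up much of the interleukin 2 around them through their high level of CD25. STAT5 also switches on Cish and SOCS genes, whose proteins bind the receptor or the kinases and end the signal, so these transcripts are often read as a trace of recent cytokine signalling. STAT3 responds chiefly to the interleukin 6, 10 and 21 receptors and STAT6 to the interleukin 4 receptor, which also use JAK1.

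STAT dimers bind a palindrome written TTCNNNGAA, which reads the same on both strands. It is shown here because Cish and Socs3 are the feedback genes whose promoter windows hold it. The windows, from RefSeq on GRCm38.p6, run from 250 bases before an annotated start site to 50 after it. A gene can have more than 1 window, and 9 of the members had 11 in all. The palindrome was present in 2 of these 11 windows (1 of Socs3 and 1 of Cish) and in 8.3% of all 32851 windows. The longer form TTCNNNNGAA, bound by STAT6, was present in 0 of the 11 and in 6.95% of all windows. In the stretches below, 5′ to 3′ along the gene, capitals mark the palindrome. The Cish stretch holds it 2 times, at bases 1 to 9 and 12 to 20 counted from the annotated start, and the Socs3 stretch holds it 154 to 146 bases before the start. A match describes the letters and is not a measured site.
Cish, chr9:107296654-107296683, plus strand: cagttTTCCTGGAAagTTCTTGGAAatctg
Socs3, chr11:117969502-117969530, minus strand: gaaaccagccTTCTTAGAAgggagggggg

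Values are given as log2(intensity + 16), where a gene's value on an array is the median of its probe sets, and a difference is KO minus WT on that scale. The 10 members all passed the filter on dim genes (5.90 log2 units) and were tested among 13891 genes with limma. At an adjusted p of 0.05, 0 of the 10 passed, where 0.274% of all tested genes did. At an unadjusted p of 0.05, 0 of the 10 passed too, where 10.7% of all tested genes did (7.67% lower and 2.99% higher in KO). An unmoderated test also passed 0 members after adjustment, and 2 (Stat3 and Stat6) before it. Before adjustment, limma passed 2 members (Stat6 and Socs3) with the mean of probe sets and 1 (Stat6) with a pseudocount of 64. The adjusted p-values of the members lay between 0.537 (Stat6) and 0.999 (Socs2). Over all genes 38 passed, 97.4% of them lower in KO (87.3% of 55 after quantile normalization). Differences were negative in 7 of the 10 members and in 59.7% of all tested genes. The median difference was -0.15 over the members and -0.05 over all tested genes. In 3 of 10 members the groups did not overlap, Jak3 and Stat3 with every KO array below every WT array and Stat6 with every KO array above. Over all tested genes 11.3% lay wholly below and 6.10% wholly above, 17.4% together. A p above the threshold does not show equal levels, so the 95% interval of each difference is given below. For 9 of the 10 members that interval excluded a change of 2-fold in either direction, and for 7 it lay within 1.5-fold in both directions. The exceptions were Socs3, whose interval reached down to 0.500-fold and so past 1.5-fold too, and, at 1.5-fold only, Stat6 (up to 1.503-fold) and Cish (down to 0.632-fold).

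**Figure D1:**
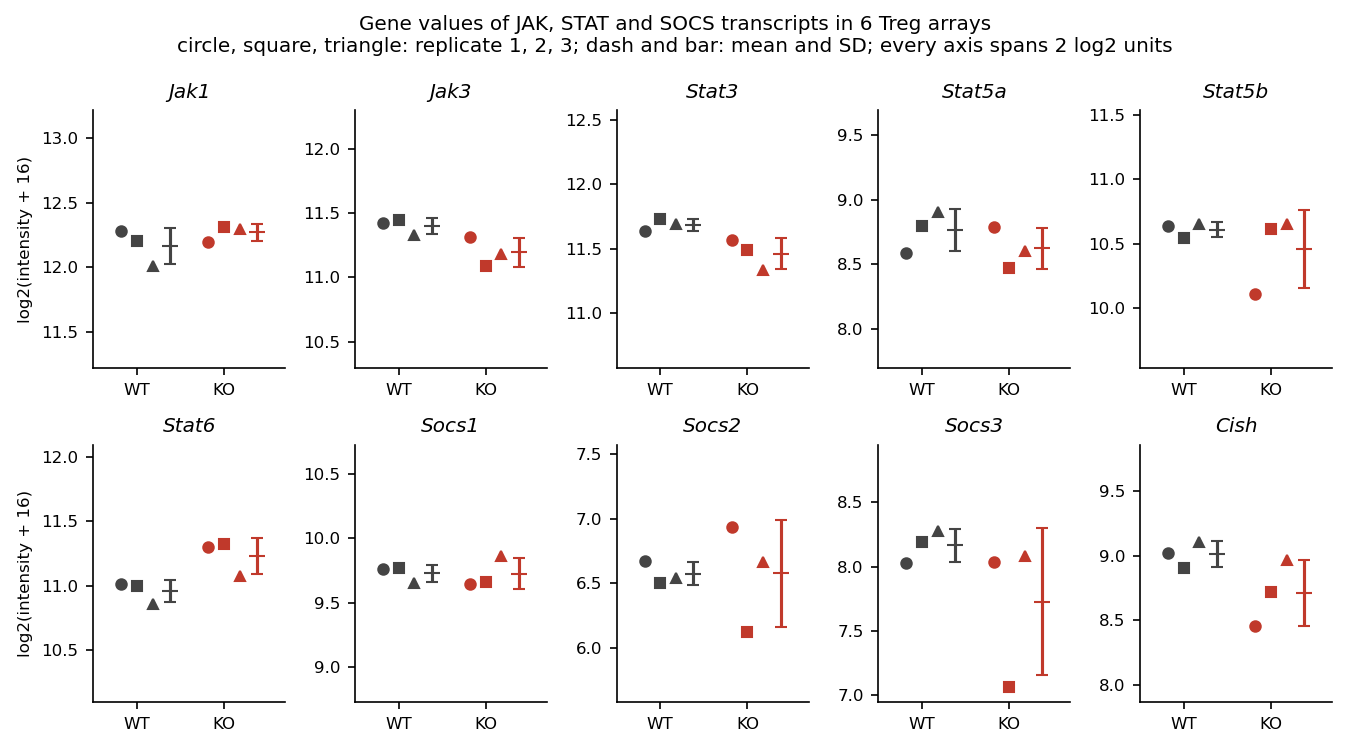
Gene values on the log2(intensity + 16) scale for the 10 members in each of the 6 arrays, WT in grey and KO in red, with the mean and SD beside each group of 3. Jak3 and Stat3 lie lower and Stat6 higher in KO with no overlap, while the spread in Socs3 comes from KO replicate 2 at 7.07 and that in Stat5b from KO replicate 1 at 10.11.

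Libraries were compared first. The median intensity per array was 88.6 in KO replicate 1 and 95.3 to 100.2 in the other 5. Park7 lay between 9.27 and 9.70 in WT and between 5.71 and 6.06 in KO. Foxp3, the lineage factor that defines Tregs, lay at 12.64 to 12.68 in WT and 12.69 to 12.75 in KO (limma adjusted p = 0.886), well above the filter floor in every array. The summed intensity of 7 Treg markers was 31946 to 32281 in WT and 29940 to 31264 in KO. Of 24 tested marker genes of other cell types 0 passed in limma, and 4 (16.7%) had an unadjusted p under 0.05, all lower in KO. Over all tested genes 10.7% had one, 7.67% lower and 2.99% higher in KO. These were Ncr1 of NK cells (-0.85), C1qc (-0.47) and Csf1r (-0.54) of macrophages and Igj of plasma cells (-0.85). The summed levels of some lists, that of the Treg markers among them, did not overlap between the groups. The 4 NK cell markers found summed to 374 to 473 in WT and 337 to 351 in KO, and the 2 CD8 markers to 458 to 505 and 361 to 436. Within these lists the direction was mixed. Besides Ncr1, Tyrobp differed by -0.26, Eomes by 0.03 and Klrb1c by 0.28, the last with every KO array above every WT array. Cd8b1 differed by -0.30 and Cd8a by 0.03. The 7 macrophage markers summed to 562 to 836 and 469 to 594, with Lyz2 and Mrc1 under the filter floor. The 6 B cell markers summed to 975 to 1400 and 978 to 1136, with Blk, Fcer2a and Pax5 under that floor. The part of these cells in the differences of the members was not tested. In such bulk samples, fewer cells of a type and less RNA per cell cannot be told apart.

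Of the kinases, Jak1, which serves the receptors of many cytokines, did not separate the groups. It lay at 12.28, 12.20 and 12.01 in WT replicates 1 to 3 and at 12.20, 12.32 and 12.30 in KO replicates 1 to 3. WT replicate 3 was the lowest of the 6, and the other WT values lay among the KO values. The difference was 0.11 (SE 0.14, 95% interval -0.20 to 0.41, limma adjusted p = 0.811, n = 3 each). It was 0.031 without WT replicate 3 and 0.16 without WT replicate 1. The probe set in the middle position, which sets the gene's value, was not the same in all arrays. By the mean of probe sets Jak1 differed by 0.08, and the median over its probe-set differences was 0.03. Its 31 probe sets divided into 13 with negative and 18 with positive differences, from -0.33 to 0.67. The brightest, 17427591, differed by -0.05.

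Jak3, the kinase bound to the common gamma chain and required for signalling by interleukins 2, 7 and 15, lay lower in all 3 KO arrays. The WT values were 11.42, 11.44 and 11.33, and the KO values were 11.32 (replicate 1), 11.09 and 11.18. The gap between the groups was narrow, since WT replicate 3 and KO replicate 1 almost met. The difference was -0.20 (SE 0.13, 95% interval -0.50 to 0.10, limma adjusted p = 0.636). It lay between -0.15 and -0.26 with any 1 array left out. The mean of probe sets and the median over the probe-set differences each gave -0.14. The probe set in the middle position was not the same in all arrays, so the narrow gap compares different probe sets. Of the 21 Jak3 probe sets 18 had negative differences, where 53.0% of all probe sets did, and in 4 of the 21 every KO array lay below every WT array, where 7.64% of all probe sets did. Probe sets of 1 gene share their RNA and are not replicates. The lowest, 17502302, differed by -0.52, the highest, 17502296, by 0.24 and the brightest, 17502318, by -0.09.

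Among the STAT genes, the 2 that encode STAT5 were close between the groups. Stat5a lay at 8.59, 8.80 and 8.91 in WT and at 8.79, 8.47 and 8.60 in KO, so the lowest and the highest values of both groups interleaved. Its difference was -0.14 (SE 0.15, 95% interval -0.48 to 0.20, limma adjusted p = 0.770). The mean of probe sets, in place of the median, gave -0.034. Leaving out WT replicate 3 gave -0.071 and leaving out KO replicate 2 gave -0.067. Leaving out either replicate 1 gave -0.23. Of 18 Stat5a probe sets 10 had negative and 8 positive differences, from -0.62 (17256443, with no overlap) to 0.51 (17256441), and the brightest, 17256459, differed by 0.02.

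Stat5b depended on 1 array. It lay at 10.64, 10.54 and 10.65 in WT and at 10.61 and 10.65 in KO replicates 2 and 3, but at 10.11 in KO replicate 1, the array with the lowest median intensity. The difference was -0.15 (SE 0.17, 95% interval -0.53 to 0.23, limma adjusted p = 0.784) with all arrays. Without KO replicate 1 it was 0.024. Leaving out KO replicate 2 gave -0.23 and leaving out KO replicate 3 gave -0.25. The mean of probe sets gave -0.077. The brightest of its 11 probe sets, 17269704, lay higher in every KO array by 0.05, and the one with the lowest difference, 17269714, lay lower in every KO array by 0.58. Stat5a and Stat5b are close copies, so their probes may share signal, and the probe sequences were not analysed here.

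Stat3, which carries signals from interleukins 6, 10 and 21, lay lower in all 3 KO arrays. The WT values were 11.64, 11.73 and 11.69, with little spread, and the KO values were 11.56, 11.49 and 11.33. The difference was -0.22 (SE 0.13, 95% interval -0.52 to 0.08, limma adjusted p = 0.598), or -0.13 with the mean of probe sets. Leaving out 1 array gave -0.16 to -0.27. The median over its probe-set differences was -0.10, and the probe set in the middle position was not the same in all arrays. Negative differences were found in 22 of its 25 probe sets, and in 7 of the 25 every KO array lay below every WT array, against the same 7.64%. They ran from -0.36 (17269722) to 0.19 (17269723). The brightest, 17269725, differed by 0.05.

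Stat6, the mediator of interleukin 4 and 13 signals, was the member with the smallest p. It lay at 11.01, 10.99 and 10.86 in WT and at 11.30, 11.32 and 11.07 in KO. KO replicate 3 stood only just above the highest WT array. The difference was 0.28 (SE 0.14, 95% interval -0.03 to 0.59, limma adjusted p = 0.537), a KO to WT ratio of 1.21. It kept its sign with any 1 array left out, from 0.23 to 0.36, and its unadjusted p was 0.075. By the mean of probe sets the difference was 0.26 (limma unadjusted p = 0.029, adjusted p = 0.336). The median over its probe-set differences was 0.18, and the probe set in the middle position was not the same in all arrays. Of its 23 probe sets 21 had positive differences. In 8 of the 23 every KO array lay above every WT array, where 6.17% of all probe sets did. Probe set 17238069 differed most, by 1.04, with 8.28, 8.28 and 7.47 in WT and 9.46, 9.54 and 8.15 in KO, so here the groups overlapped. Probe set 17238065 differed by -0.31, and the brightest, 17238078, by 0.17, with no overlap.

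**Figure D2:**
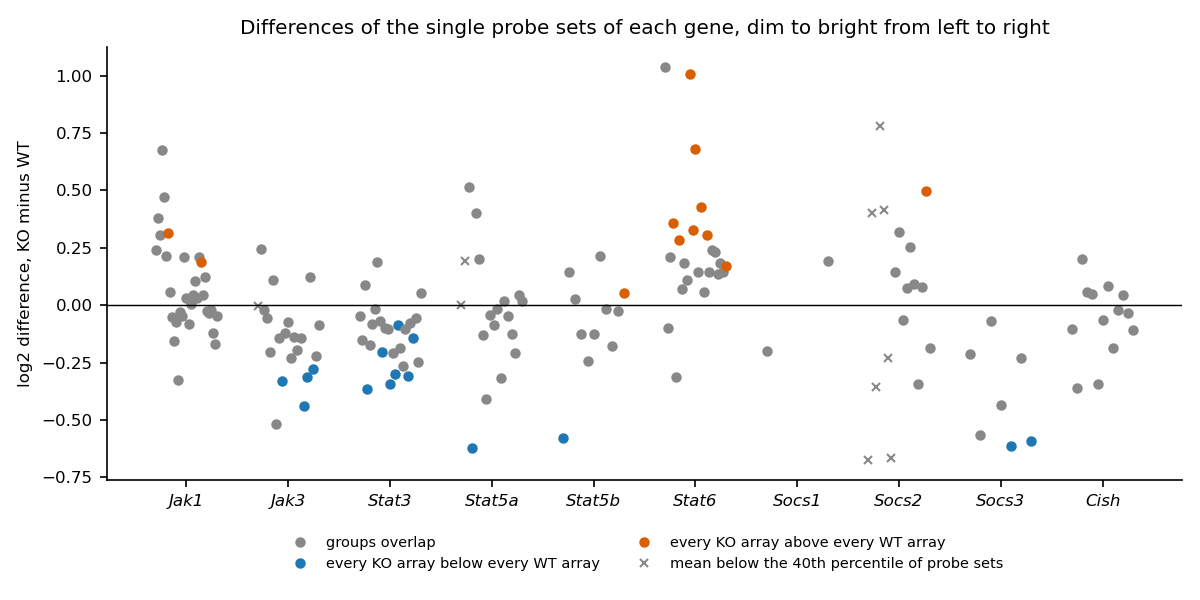
Difference of each of the 168 member probe sets, KO minus WT on the log2(intensity + 16) scale, placed by gene and from dim to bright within a gene. Blue and orange mark probe sets whose groups do not overlap, and crosses mark dim ones; Stat6 lies mostly above 0, with 21 of 23, while Stat3, Jak3 and Socs3 lie mostly below, with 22 of 25, 18 of 21 and 7 of 7.

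Over all 168 member probe sets, 0 passed an adjusted p of 0.05 in the limma fit to 269751 probe sets, where 3 passed in all (0.00111%). At an unadjusted p of 0.05, 10 of the 168 (5.95%) passed, against 7.59% of all probe sets. The groups did not overlap in 27 of the 168 (16.1%), 15 with KO below and 12 with KO above, against 13.8% of all. The share of member probe sets with separate groups was thus near the background, and the direction differed by gene.

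The feedback inhibitors came next. Socs1, which blocks the JAK kinase domain and restrains interferon gamma and interleukin 2 signals, was level on average. It lay at 9.76, 9.77 and 9.65 in WT and at 9.65, 9.66 and 9.86 in KO. The difference was -0.0023 (SE 0.13, 95% interval -0.30 to 0.30, limma adjusted p = 0.996), and its sign turned with either scaling between arrays. Only 2 probe sets measured it, and they pointed in opposite directions, 17328106 by 0.19 and 17328105 by -0.20, with KO replicate 1 the highest of the 6 arrays in the first and the lowest in the other.

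Socs2, a STAT5-induced inhibitor known best for restraining growth hormone signalling, was dim and scattered in KO. It lay at 6.68, 6.50 and 6.54 in WT and at 6.94, 6.12 and 6.66 in KO. KO replicate 1 stood above all WT values, replicate 2 below them and replicate 3 within their range. The difference was 7.9e-04 (SE 0.20, 95% interval -0.45 to 0.45, limma adjusted p = 0.999). Of its 17 probe sets 10 were bright enough to exceed the 40th percentile of all probe sets, and differences ran from -0.67 (17244496) to 0.78 (17244490), both dim. The brightest, 17244494, differed by -0.19. In 1 of the 17, the bright 17244488, every KO array lay above every WT array, as in 6.17% of all probe sets. It lay at 9.62, 9.64 and 9.37 in WT and at 10.35, 9.65 and 10.12 in KO (0.50, limma adjusted p = 0.677).

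Socs3, which binds the gp130 chain and limits STAT3 signalling, had the largest difference of the 10 in absolute value. By the median of its probe sets this difference rested largely on 1 mouse. It lay at 8.03, 8.19 and 8.28 in WT and at 8.03, 7.07 and 8.08 in KO. KO replicate 2 was far below the other 5 arrays, which lay close together. The difference was -0.44 (SE 0.25, 95% interval -1.0 to 0.13, limma adjusted p = 0.586), and -0.11 without KO replicate 2. The gene value was that of the same probe set, 17272623, in every array. By the mean of probe sets the difference was -0.39 (limma unadjusted p = 0.034, adjusted p = 0.356). All 7 Socs3 probe sets had negative differences, from -0.61 (17272622) to -0.07 (17272625). In the brightest, 17272620, the groups did not overlap, with 10.40, 10.26 and 10.14 in WT and 9.95, 9.31 and 9.77 in KO (-0.59, limma adjusted p = 0.611). Probe set 17272622 showed the same order, with 9.99, 9.83 and 9.82 in WT and 9.61, 9.0 and 9.19 in KO. In these 2 probe sets KO replicate 2 was again lowest, and the other KO arrays lay below WT as well, while in the other 5 the groups overlapped. The summed macrophage markers were also lowest in KO replicate 2, at 469, and their part in the Socs3 value was not tested.

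Cish, the inhibitor whose promoter stretch with 2 palindromes is printed above, gave different sizes by different summaries. By the median of its 13 probe sets it lay at 9.02, 8.91 and 9.11 in WT and at 8.45, 8.72 and 8.96 in KO. The KO arrays were spread widely, with replicate 1 lowest and replicate 3 within the WT range. The difference was -0.30 (SE 0.16, 95% interval -0.66 to 0.06, limma adjusted p = 0.563), and -0.17 without KO replicate 1. It was -0.060 with the mean of probe sets, and the median over the 13 probe-set differences was -0.03. The probe set in the middle position, which sets the gene's value, was not the same in all arrays: 17530883, 17521304 and 17521305 each held it in at least 1 array. Singly these 3 differed by -0.34, -0.07 and 0.05. Of the 13 probe sets 8 had negative and 5 positive differences, from -0.36 (17521302) to 0.20 (17521301), and in 0 of them were the groups separate. The brightest, 17521312, differed by -0.11.

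**Figure D3:**
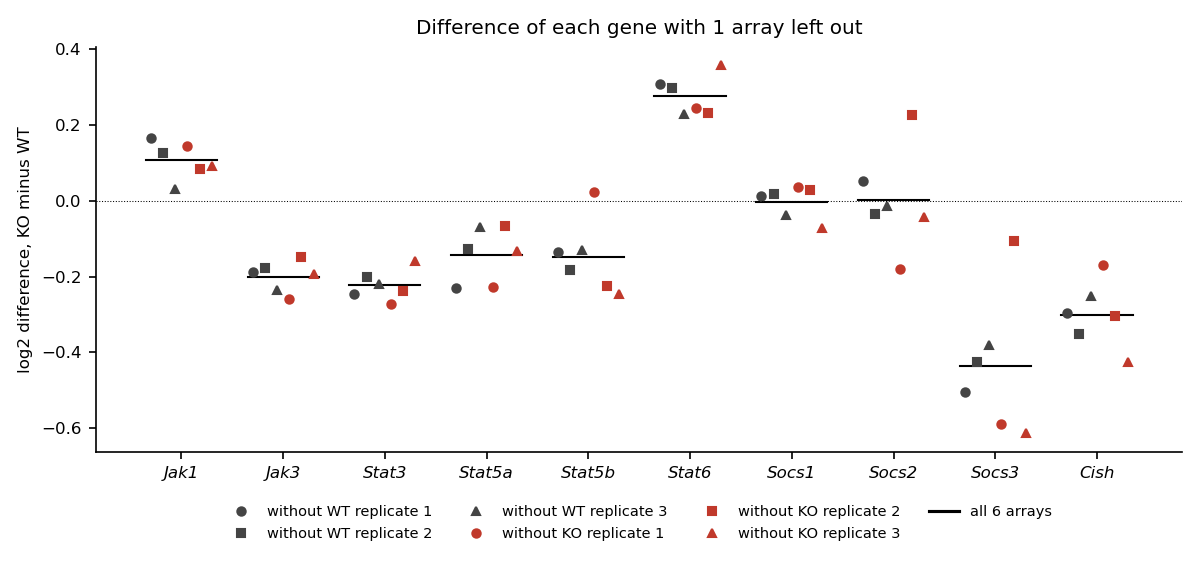
Difference of each member, KO minus WT on the log2(intensity + 16) scale, with all 6 arrays (black line) and with each array left out in turn (grey symbols for WT, red for KO). Stat6, Jak3 and Stat3 keep their sign, Socs3 moves from -0.44 to -0.11 without KO replicate 2, and Stat5b moves from -0.15 to 0.024 without KO replicate 1.

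The members did not vary as 1 block over the 6 arrays. Among the 45 pairs of members, Pearson correlations over these arrays ran from -0.90 (Jak1 with Stat5a) to 0.87 (Stat5b with Cish), and Stat6 with Cish gave -0.89. Stat5b and Cish were both lowest in KO replicate 1, the array with the lowest median intensity, and the points of every pair share their arrays. The tested genes whose values followed Stat6 most closely over the 6 arrays were the malic enzyme Me2 (r = 0.989), the liver X receptor beta gene Nr1h2 (r = 0.982) and the glycolytic mutase Pgam1 (r = 0.978). These are the highest correlations among the tested genes, with predicted genes, pseudogenes and antigen receptor segments left out, each over 6 points. Their own differences were 0.35, 0.17 and 0.18, with limma adjusted p-values of 0.434, 0.681 and 0.653. Positive differences follow from the choice of genes that track Stat6, which was higher in every KO array.

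The rest of the pathway was taken as 5 gene lists, of which 49 genes were tested. At an adjusted p of 0.05 in limma, 0 of the 49 passed in either direction, where 0.274% of all tested genes did. At an unadjusted p of 0.05, 9 of the 49 (18.4%) passed, where 10.7% of all tested genes did. Of these 9 genes, 6 came from the list of STAT3 and STAT6 targets, of which 9 were tested. The lower members of that list were known from these arrays when it was drawn up, so the 18.4% is not a measure of the pathway. Of the other JAK, STAT and SOCS genes 8 were tested, 6 with negative differences and a median of -0.12, and 0 passed at an unadjusted p of 0.05. Socs5, an inhibitor linked to epidermal growth factor and interleukin 4 signalling, lay at 7.64, 7.87 and 7.86 in WT and 7.14, 7.60 and 7.53 in KO, with every KO array lower (-0.36, limma adjusted p = 0.469; -0.22 without KO replicate 1). Stat2, a factor of type I interferon signalling, differed by -0.25 (0.595; -0.15 without WT replicate 2 and -0.47 by the mean of probe sets). Jak2 differed by -0.22 (0.746) and, like Stat5b, was low in KO replicate 1 alone, at 9.66 against 10.34 to 10.48 in the others. Leaving out that array gave 0.043, while leaving out KO replicate 2 gave -0.34 and KO replicate 3 gave -0.36.

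The receptor chains above the kinases had a median difference of 5.7e-04 over 10 genes, 5 negative and 5 positive. The 3 chains of the interleukin 2 receptor were level or nearly so, Il2ra at -0.0013, Il2rb at -0.09 and Il2rg at -0.15 (limma adjusted p = 0.998, 0.843 and 0.721). The sort chose cells by CD25, the product of Il2ra. Il6ra, encoding the chain that binds interleukin 6, was the 1 receptor gene with an unadjusted p under 0.05. It lay at 10.09, 10.05 and 10.35 in WT and at 10.94, 10.50 and 10.59 in KO, with every KO array higher (0.51, SE 0.16, limma adjusted p = 0.299). Its signalling partner gp130, encoded by Il6st, differed by 0.0025 (limma adjusted p = 0.996). Il7r, the interleukin 7 receptor, lay lower in every KO array by 0.14 (0.743; -0.065 without KO replicate 1).

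Among 10 other inhibitors of the pathway, 6 differences were negative, the median was -0.03, and 2 genes had an unadjusted p under 0.05. Both encode phosphatases, and they lay on opposite sides. Ptpn6, encoding SHP-1, lay at 10.47, 10.43 and 10.47 in WT and at 10.82, 10.84 and 10.69 in KO (0.33, SE 0.13, limma adjusted p = 0.408). Ptpn2, encoding a phosphatase that acts on JAK1, JAK3 and STAT5, lay at 9.11, 9.27 and 9.14 in WT and at 8.57, 8.95 and 8.90 in KO (-0.37, SE 0.15, limma adjusted p = 0.424). The groups did not overlap in either. By the mean of probe sets Ptpn6 differed by 0.16 and Ptpn2 by -0.22. Ptpn11, encoding SHP-2, differed by -0.30 (0.539), also with no overlap, and by -0.20 without WT replicate 3.

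**Figure D4:**
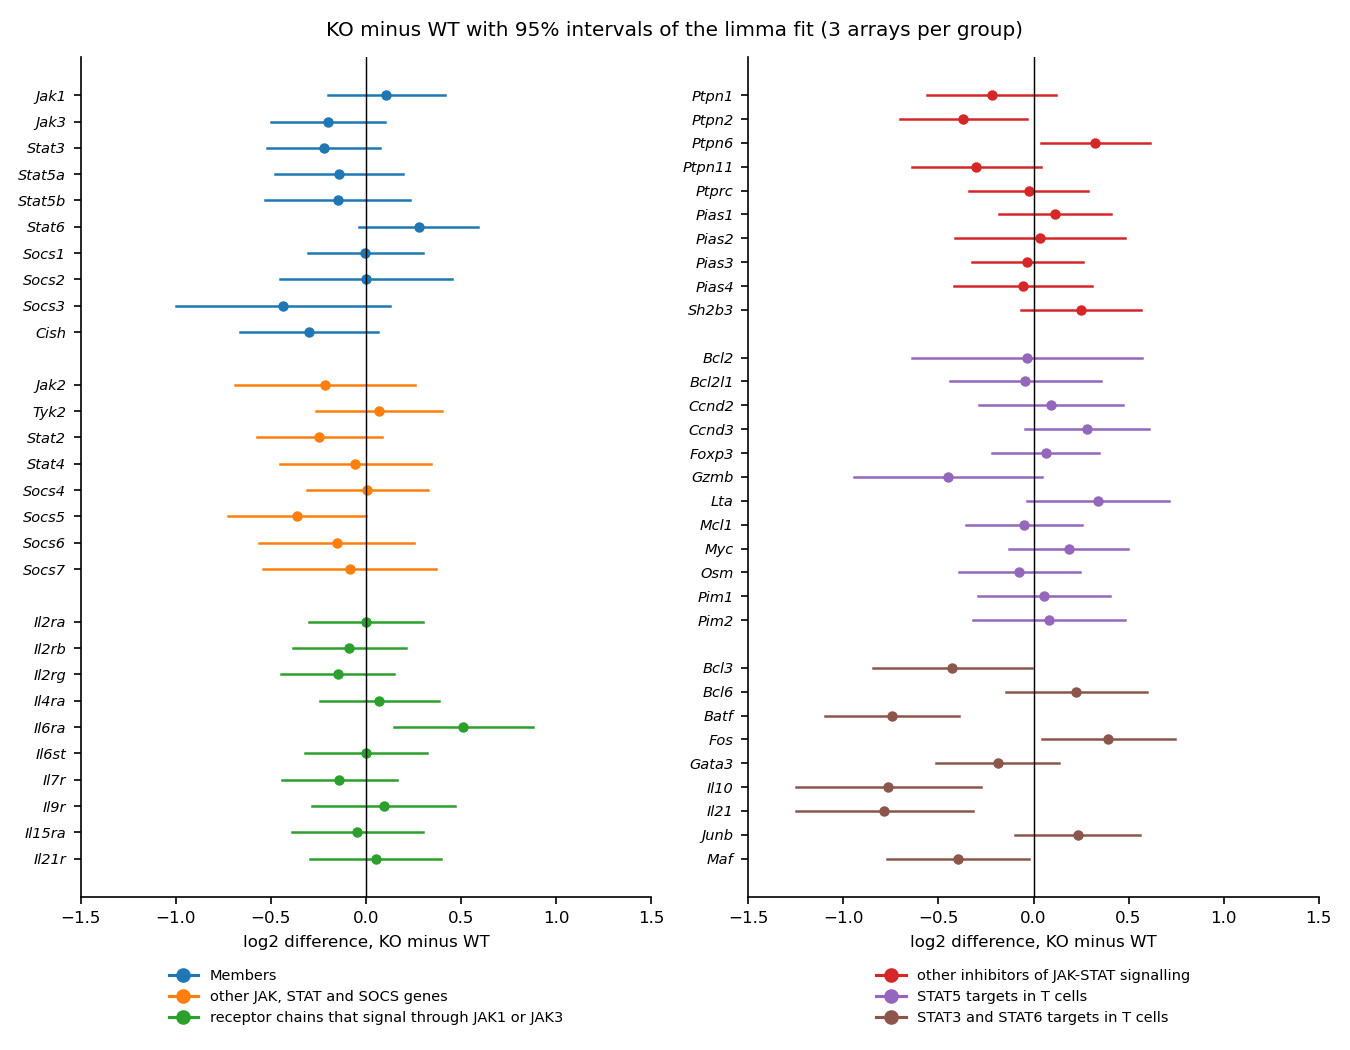
Difference of the 10 members and the 49 tested genes of 5 pathway lists, KO minus WT on the log2(intensity + 16) scale, with points for the estimate and lines for the 95% interval of the limma fit to 3 arrays per group. The intervals of all 10 members include 0; those of 9 pathway genes, Batf, Il10 and Il21 among them, do not, and 0 of these 9 passed after adjustment.

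Targets of the STAT factors were read as 2 lists. Of 12 STAT5 targets in T cells 5 were lower and 7 higher, with a median of 0.06, and 0 had an unadjusted p under 0.05. The 3 with the smallest p were Gzmb, the granzyme B gene (-0.45, limma adjusted p = 0.528), Lta, encoding lymphotoxin alpha (0.34, 0.529), and the cyclin gene Ccnd3 (0.28, 0.550). Gzmb differed by -0.23 without KO replicate 1, -0.71 without KO replicate 3 and -0.28 by the mean of probe sets. Lta differed by 0.51 without WT replicate 3, and Ccnd3 by 0.18 without WT replicate 3. Of 9 STAT3 and STAT6 targets 6 differences were negative, and the median was -0.40, against -0.05 over all tested genes. An unadjusted p under 0.05 was found for 6 of the 9, of which 5 lay lower in KO and Fos higher. Over all tested genes 10.7% had one, 7.67% lower and 2.99% higher in KO. The 3 with the smallest p were Batf, a factor of effector T cells (-0.74, limma adjusted p = 0.123), and the cytokine genes Il21 (-0.79, 0.221) and Il10 (-0.76, 0.259), in each of which every KO array lay below every WT array. This list holds genes of effector and follicular T cells that many signals besides STAT3 and STAT6 control. Its lower members were known from these arrays when it was drawn up. Its count and median are therefore shaped by that choice and do not test STAT3 or STAT6 targets against all genes.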

How the data were processed

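Transcripts of Tregs from 3 WT and 3 KO mice were measured by Affymetrix Mouse Gene 2.0 ST array. The authors deposited 1 intensity per exon-level probe set and array, made by the PLIER algorithm per the labels and Expression Console 1.4 per the submitters' processing notes. The sources used here do not give the background correction or the normalization between arrays. Per the labels each sample is a mouse of its own.

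The scale used was log2(intensity + 16), which understates differences of dim genes, and nothing was normalized further. Of 269751 probe sets 233753 had 1 symbol in the platform annotation, 5106 had several and 30892 had none. For each gene and array the median over probe sets with 1 symbol was taken. Genes under the 40th percentile of the mean were left out, which left 13891 of 23152. limma 3.58.1 (R 4.3.3) fitted KO against WT with lmFit and eBayes. Its two-sided p-values were adjusted by Benjamini-Hochberg over all tested genes, or over all probe sets with no filter. With 3 arrays a group, the smallest exact permutation p is 0.10. Alternatives covered the pseudocount, filter, summary, scaling, test and arrays left out. The fits were tested on simulated data. The number of arrays limits the precision.

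The members, gene lists, tests and naming rule were chosen with earlier results of these data known. The rule named all members, Park7, Foxp3, each member's brightest, lowest and highest probe sets, from each list the genes that passed or else the 3 with the smallest p, and the 3 genes most correlated with the member of smallest p, without predicted genes, pseudogenes and receptor segments. Il2ra, Il2rb, the genes named from marker lists and further probe sets were chosen after their values were seen. Marker lists of neutrophils, dendritic, erythroid and plasma cells were also read, with median differences of -0.04, -0.15, -0.25 and -0.20 over 3, 2, 2 and 3 tested genes. All 10 member names matched a RefSeq table of GRCm38.p6, and 0 lay within 10 Mb of Park7.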

Additional observations from a re-analysis of the deposited data

How the results depend on the processing

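Across all alternatives 0 members and 0 member probe sets passed, also at an adjusted p of 0.10, and 1 pathway gene (Il21, adjusted p = 0.0103) passed with the mean of probe sets. The count of 38 genes was 60 with the mean of probe sets, 67 with the replicate block, 74 at an adjusted p of 0.10, 0 with an unmoderated test (1335 at an unadjusted p of 0.05) and 4 to 37 with 1 array left out. The count of 3 probe sets was 79 and 8 with pseudocounts of 1 and 64, 15 without dim probe sets, 7 with quantile normalization, 10 with median centring, 0 with the replicate block, 13 with a trended robust variance, 6 with an unmoderated test, 8 at 0.10 and 0 to 2 with 1 array left out. Same-numbered arrays correlated at 0.15, 0.17 and 0.010 in their deviations from the group means. WT replicates 1 and 2 correlated best with the KO array of their own number and WT replicate 3 with KO replicate 1. With 3 arrays a group, whether the numbers pair the mice cannot be told from these values, and the main fit used no pairing. The sign turned for Socs1 with a pseudocount of 64 (0.0076), quantile normalization (0.034) and median centring (0.033), for Socs2 with a pseudocount of 1 (-0.0079), and with arrays left out for Socs1 (-0.072 to 0.037), Socs2 (-0.18 to 0.23), Stat5b (-0.25 to 0.024) and Jak2 (-0.36 to 0.043); the cause was not tested. Socs2 was not tested at the 60th percentile filter. With 1 array left out a group holds 2 arrays, and p-values measure the spread between these mice only.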

Other observations

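Besides the 21 Jak3 probe sets, 2 more carry the symbols of both Jak3 and Insl3, the gene of insulin-like peptide 3, and entered no gene value. Probe set 17502329 lay at 11.47, 11.45 and 11.32 in WT and at 11.002, 10.98 and 10.78 in KO, with every KO array lower (-0.49, SE 0.14, limma adjusted p = 0.556 over all probe sets). Probe set 17502328 lay at 10.09, 9.73 and 9.75 in WT and at 10.19, 9.71 and 9.77 in KO, with overlapping groups (0.03, adjusted p = 0.979). Which of the 2 genes each probe set reports cannot be told from the annotation.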
